A study of Mus musculus with 18 samples.

Results

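The miR-344 family is a set of related microRNAs (miRNAs), short RNAs that guide Argonaute proteins to partly complementary messenger RNAs, here followed across cerebellum and hippocampus of the mouse. The 5 mature miRNAs described were chosen by name from the deposited count tables: miR-344-3p, miR-344-5p, miR-344b-3p, miR-344c-3p and miR-344d-3p, out of 1841 mature miRNAs. They were picked on their levels in the 2 tissues under the working name of a forebrain family, so levels by tissue are given below as a description with no test. The data went against that name for 2 of the 5. Both strands of miR-344 itself were lower in WT hippocampus, a forebrain structure, than in WT cerebellum, and miR-344b-3p, miR-344c-3p and miR-344d-3p were higher. A further 12 mature miRNAs of the tables carry the name miR-344, and they are given beside the 5 members.

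Small RNAs of 18 to 32 nt were sequenced from tissue of male C57BL/6J mice aged 1 month in 18 libraries, 3 biological replicates in each of 6 groups. Cerebellum came from wild-type mice (WT), from Cyrano-/- mice (CyrKO), which lack the long noncoding RNA Cyrano, from mice whose Cdr1as gene lacks 18 nt at the site for miR-671 (Cdr1as671), and from double mutants (CyrKO;Cdr1as671). Hippocampus came from WT and CyrKO mice. Cyrano is known to direct the decay of miR-7, and the circular RNA Cdr1as carries many sites for miR-7 and 1 nearly perfect site for miR-671. The labels do not say whether cerebellum and hippocampus with the same number came from 1 animal. Libraries held 8591172 to 15305829 reads assigned to miRNAs, and 1042 to 1174 miRNAs with a read. Replicates of a group correlated at r = 0.973 to 0.998 over log2 levels.

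Levels are in CPM, reads of a miRNA scaled to the summed miRNA reads of its library. A level compares 1 miRNA between libraries. Between different miRNAs it compares reads, since adapters are known to ligate to some ends better than to others. In whole tissue, fewer cells that make a miRNA and less of it per cell cannot be told apart.

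The labels were checked on other miRNAs. The long RNAs that carry the mutations are not measured by these libraries. miR-7a-5p, which was chosen for this check with its values known, lay between 19447 and 41716 CPM in the CyrKO and CyrKO;Cdr1as671 libraries, and between 438 and 4659 CPM in those with intact Cyrano. Of the lists of tissue markers, 6 hippocampus-rich miRNAs summed to 30138 to 30722 CPM in WT hippocampus and to 2800 to 2856 CPM in WT cerebellum. The 5 cerebellum-rich miRNAs found in the tables, of 6 listed, summed to 1382 to 1655 CPM in WT cerebellum and to 162 to 212 CPM in WT hippocampus. Of these 5, miR-1a-3p went the other way, with means of 108 CPM in WT cerebellum and 172 CPM in WT hippocampus. The sums went with the tissue labels. Both lists were chosen with earlier results of these data known, so they are no independent check.

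A miRNA hairpin is cut into a strand from its 5′ arm and one from its 3′ arm, of which usually 1 is kept by Argonaute. Targets are chosen mainly by the seed, bases 2 to 8 from the 5′ end. miRNAs with the same seed are therefore grouped as a family of shared targets, whatever their names. In the sequences below, 5′ to 3′, from RefSeq (GRCm38.p6), the seed is in capitals. All 17 miR-344 entries of the tables matched RefSeq by name. The members are shown because they fall into 4 different seeds.

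mmu-miR-344-3p: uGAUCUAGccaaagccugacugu
mmu-miR-344c-3p: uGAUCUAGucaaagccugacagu
mmu-miR-344b-3p: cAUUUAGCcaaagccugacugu
mmu-miR-344d-3p: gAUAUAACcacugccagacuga
mmu-miR-344-5p: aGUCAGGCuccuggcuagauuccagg

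miR-344-3p and miR-344c-3p share the seed GAUCUAG, which no other of the 1679 RefSeq mouse mature miRNAs holds. Counted from 1 at the 5′ end of miR-344-3p, they differ by C9U and U21A. miR-344b-3p has a seed of its own, AUUUAGC, but the 18 bases of its 3′ part, uagccaaagccugacugu, are also the end of miR-344-3p. Its 5′ end starts differently, and 3 single-base edits turn one into the other. miR-344d-3p stands apart, with 7 to 9 edits to each of the other 3p members. The method that assigned reads is not given in the sources used here, so trimmed reads of miR-344-3p and miR-344b-3p could have been split between them in an unknown way.

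miR-344d-3p shares its seed AUAUAAC with miR-344e-3p and with 1 miRNA outside the family, miR-410-3p. They are shown to compare the bases after the seed.

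mmu-miR-344e-3p: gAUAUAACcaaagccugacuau
mmu-miR-410-3p: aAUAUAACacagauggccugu

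The seed of miR-344-5p, GUCAGGC, is held by 6 RefSeq mature miRNAs, all of them 5p strands of this family that are in the tables (miR-344-5p, b-5p, c-5p, d-1-5p, d-3-5p and g-5p).

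The family lies in 1 cluster. All 13 Mir344 hairpins of the RefSeq table are on the minus strand of chromosome 7, at chr7:61683124-62085310 (GRCm38.p6), a span of 402 kb. In the direction of transcription the order is Mir344i, f, g, Mir344-2, Mir344, c, b, h-2, h-1, e, d-3, d-2 and d-1. miR-344-3p and miR-344-5p can come from 2 hairpins, Mir344-2 at chr7:61940027-61940106 and Mir344 at chr7:61877770-61877864, whose mature sequences are identical. miR-344c-3p comes from Mir344c (chr7:61837311-61837402) and miR-344b-3p from Mir344b (chr7:61790519-61790581). miR-344d-3p can come from 3 hairpins, Mir344d-3 (chr7:61726249-61726328), Mir344d-2 (chr7:61685272-61685351) and Mir344d-1 (chr7:61683124-61683192). Counts of a mature sequence with several hairpins cannot be divided among them.

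By GENCODE M21, which uses the same build, Mir344-2 lies in an intron of the long noncoding RNA gene A330076H08Rik. Mir344g overlaps an exon of that gene. The 7 hairpins from Mir344 to Mir344d-3 lie in introns of the long noncoding RNA gene A230057D06Rik, on its strand. No other annotated gene overlaps Mir344i, Mir344f, Mir344d-2 or Mir344d-1. On the side of Mir344i, the nearest of 3 known protein-coding genes looked up is Ndn, 263 kb from the cluster, followed by Magel2 at 292 kb and Mkrn3 at 332 kb, which are known as imprinted genes expressed from the paternal chromosome.

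The hairpins of miR-344-5p and miR-344d-3p, the members with the lowest and the highest WT ratio of hippocampus to cerebellum, are printed to show where the mature strands sit. The 5p strand is the first run of capitals and the 3p strand the second.

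Mir344-2: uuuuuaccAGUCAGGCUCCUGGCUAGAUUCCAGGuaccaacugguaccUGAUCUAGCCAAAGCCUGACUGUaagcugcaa
Mir344d-1: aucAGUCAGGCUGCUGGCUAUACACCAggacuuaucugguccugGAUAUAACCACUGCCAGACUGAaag

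miR-344-3p was the most abundant member in every library. Its level was 746, 913 and 842 CPM in the 3 WT cerebellum libraries, and 869, 757 and 781 CPM in CyrKO cerebellum. The Cdr1as671 cerebellum libraries held 795, 692 and 714 CPM, and the double mutants 705, 774 and 847 CPM. The 4 cerebellum groups overlapped each other. Hippocampus was lower, with 493, 479 and 504 CPM in WT and 543, 499 and 499 CPM in CyrKO. Every hippocampus library lay below every cerebellum library. The WT mean was 833 ± 83.8 CPM (SD, n = 3) in cerebellum and 492 ± 12.1 CPM in hippocampus, which is 1.69-fold higher in cerebellum.

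miR-344c-3p, with the same seed, went the other way. It read 18.7, 22.4 and 18.8 CPM in WT cerebellum and 134, 120 and 136 CPM in WT hippocampus. CyrKO gave 20.0, 18.8 and 17.0 CPM in cerebellum and 126, 121 and 134 CPM in hippocampus. The tissues did not overlap, and the WT hippocampus mean (130 ± 8.52 CPM) was 6.51-fold that of cerebellum (20.0 ± 2.12 CPM). In the other mutants' cerebella it lay between 18.3 and 20.4 CPM (Cdr1as671) and between 18.6 and 22.7 CPM (double mutant), within the range of WT and CyrKO apart from the single highest library.

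miR-344b-3p was at 13.0, 13.7 and 16.0 CPM in WT cerebellum and at 40.4, 46.5 and 43.0 CPM in WT hippocampus. The CyrKO libraries held 17.3, 13.2 and 13.2 CPM in cerebellum and 46.6, 36.5 and 37.9 CPM in hippocampus. Cdr1as671 cerebella lay between 13.0 and 14.4 CPM, and double mutant cerebella between 12.7 and 17.7 CPM. Hippocampus was higher in every library, by 3.04-fold between the WT means of 43.3 ± 3.07 and 14.2 ± 1.57 CPM (SD, n = 3).

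miR-344d-3p had the widest gap between tissues of the 5. WT cerebellum held 3.11, 3.03 and 4.38 CPM, from 35 to 44 reads a library. WT hippocampus held 157, 152 and 231 CPM. CyrKO gave 5.01, 2.35 and 3.22 CPM in cerebellum and 160, 151 and 164 CPM in hippocampus. Cdr1as671 cerebella lay between 3.62 and 6.28 CPM, and those of double mutants between 3.13 and 4.08 CPM. The WT means of 180 ± 44.3 and 3.51 ± 0.758 CPM (SD, n = 3) differed 51.4-fold.

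The third WT hippocampus library was high for miR-344d-3p and its 2 partners were close together. That library also had the lowest sum of the 6 choroid plexus miRNAs listed, 3399 CPM against 6696 and 14591 CPM in the other WT hippocampi and 5241, 15586 and 11538 CPM in the CyrKO hippocampi. It also had the lowest sum of the 3 oligodendrocyte miRNAs, 9564 CPM against 12479 to 15623 CPM in the other hippocampi. Its sum of the 3 immune miRNAs found was the highest, 644 CPM against 576 to 602 CPM. The part of these differences in the level of miR-344d-3p was not tested. Without that library the WT ratio of hippocampus to cerebellum was 5.46 on the log2 scale, against 5.68 with it.

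miR-344-5p, the opposite strand of miR-344-3p, was rare in all groups. It read 1.51, 2.13 and 1.49 CPM in WT cerebellum, from 15 to 26 reads a library. WT hippocampus read 0.698, 0.922 and 0.539 CPM, from 5 to 9 reads. The WT libraries of the tissues did not overlap, and cerebellum was 2.38-fold higher, with a 95% counting interval for hippocampus over cerebellum of 0.238 to 0.706. In CyrKO the tissues overlapped, with 1.18, 1.44 and 0.982 CPM in cerebellum and 1.49, 0.567 and 1.13 CPM in hippocampus.

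**Figure D1:**
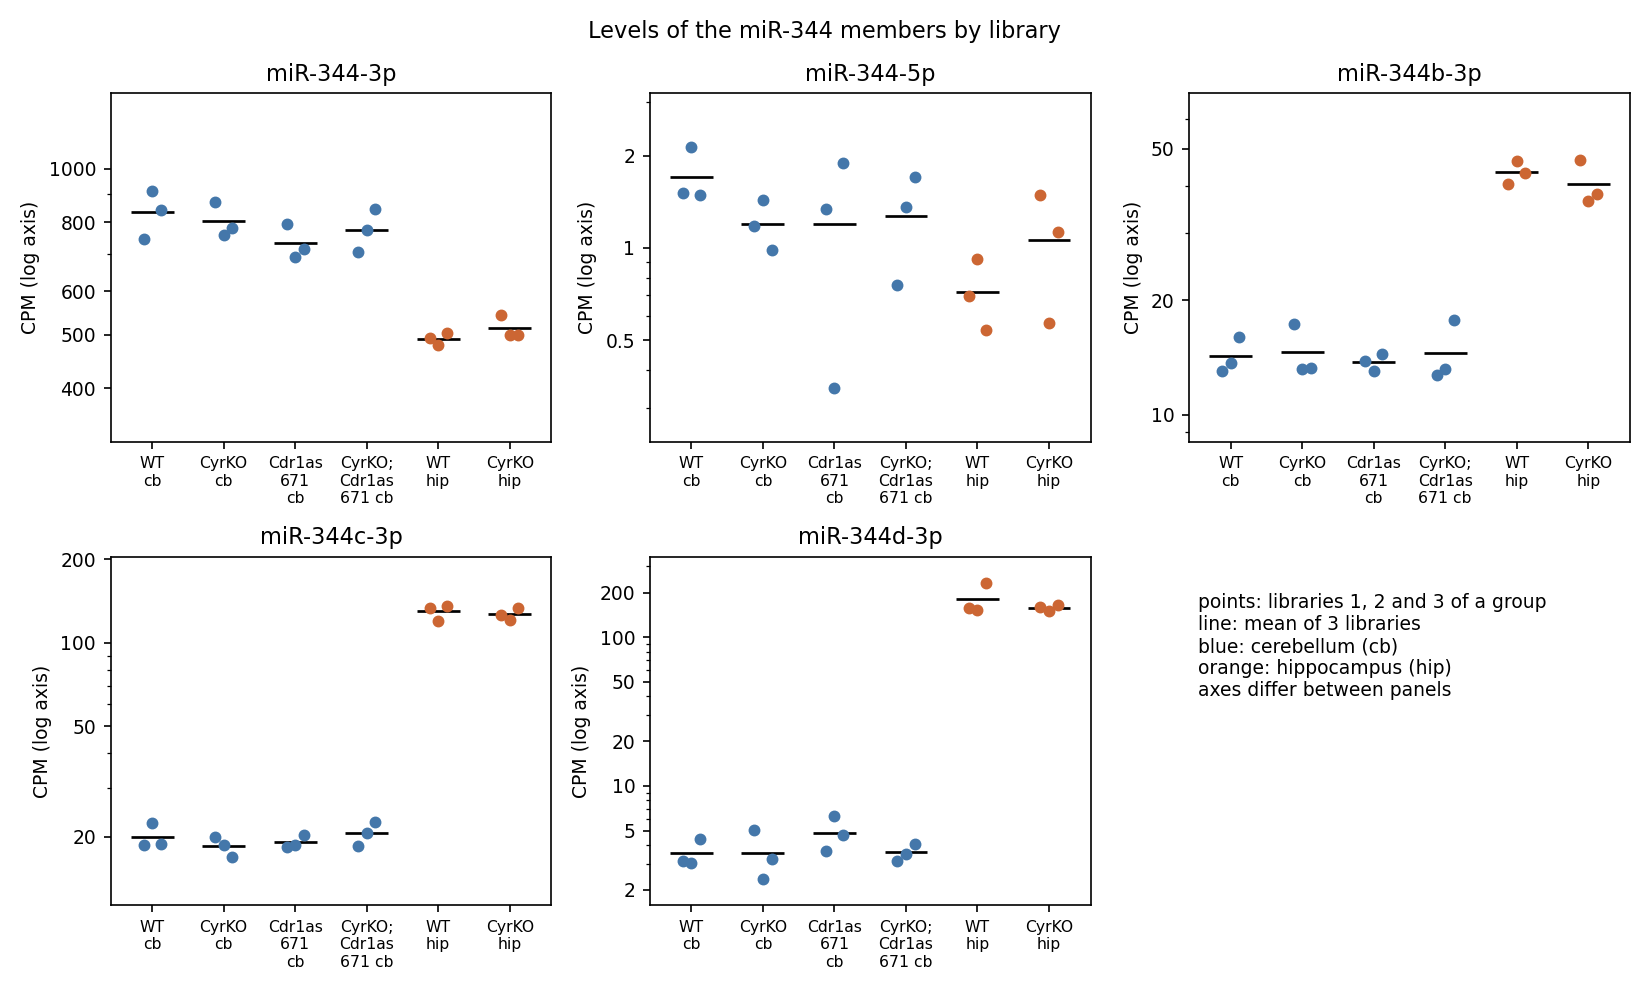
Levels of the 5 members in each library, in CPM on log axes that differ between panels, with points for the 3 libraries of a group and a line at their mean. Hippocampus (orange) lies below cerebellum (blue) for miR-344-3p and above it for miR-344b-3p, miR-344c-3p and miR-344d-3p. For miR-344-5p the CyrKO tissues overlap.

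Ordered by group mean, the 2 hippocampus groups were lowest for miR-344-3p and highest for miR-344b-3p, miR-344c-3p and miR-344d-3p. For these 4 members the only neighbours in the order whose libraries did not overlap were a hippocampus and a cerebellum group. For miR-344-5p every pair of neighbours overlapped.

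These ratios depend on the scale. Over the 390 miRNAs at 10 CPM or more in both tissues, the median WT ratio of hippocampus to cerebellum was 0.61 on the log2 scale by CPM, and 0.05 after TMM scaling. Relative to that shift, miR-344-3p and miR-344-5p were further down than their CPM show, and the other members less far up. No member changed direction under TMM scaling or when the 10 most abundant miRNAs were left out of the totals. As background, 54.8% of the 735 miRNAs at 1 CPM or more in a WT tissue were higher in every hippocampus library than in every cerebellum library, and 18.4% were lower. Of the 5 members 3 were higher and 2 lower. In CyrKO these shares were 59.6% and 18.8% of 733 miRNAs, with 3 members higher, 1 lower and 1 overlapping.

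The shares of the members within the family's reads are free of that scale, while the family's share of all miRNA reads is not. Together the 5 members took 0.0873% ± 0.0086 of miRNA reads in WT cerebellum and 0.0846% ± 0.0061 in WT hippocampus (SD, n = 3), and 0.0731% to 0.0954% in any library. Within those reads, miR-344-3p made up 95.5% ± 0.178 in WT cerebellum and 58.3% ± 2.77 in WT hippocampus. miR-344d-3p went from 0.404% ± 0.0895 to 21.1%, miR-344c-3p from 2.29% ± 0.141 to 15.4% ± 0.735, and miR-344b-3p from 1.64% ± 0.193 to 5.14% ± 0.597. The log2 ratio of the family's total between WT hippocampus and WT cerebellum was −0.044 by CPM, −0.60 with TMM-scaled totals and −0.42 without the 10 most abundant miRNAs in the totals. In CyrKO the shares were 95.5% ± 0.274 for miR-344-3p in cerebellum and 61.1% ± 1.26 in hippocampus, and 0.413% and 18.9% for miR-344d-3p.

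**Figure D2:**
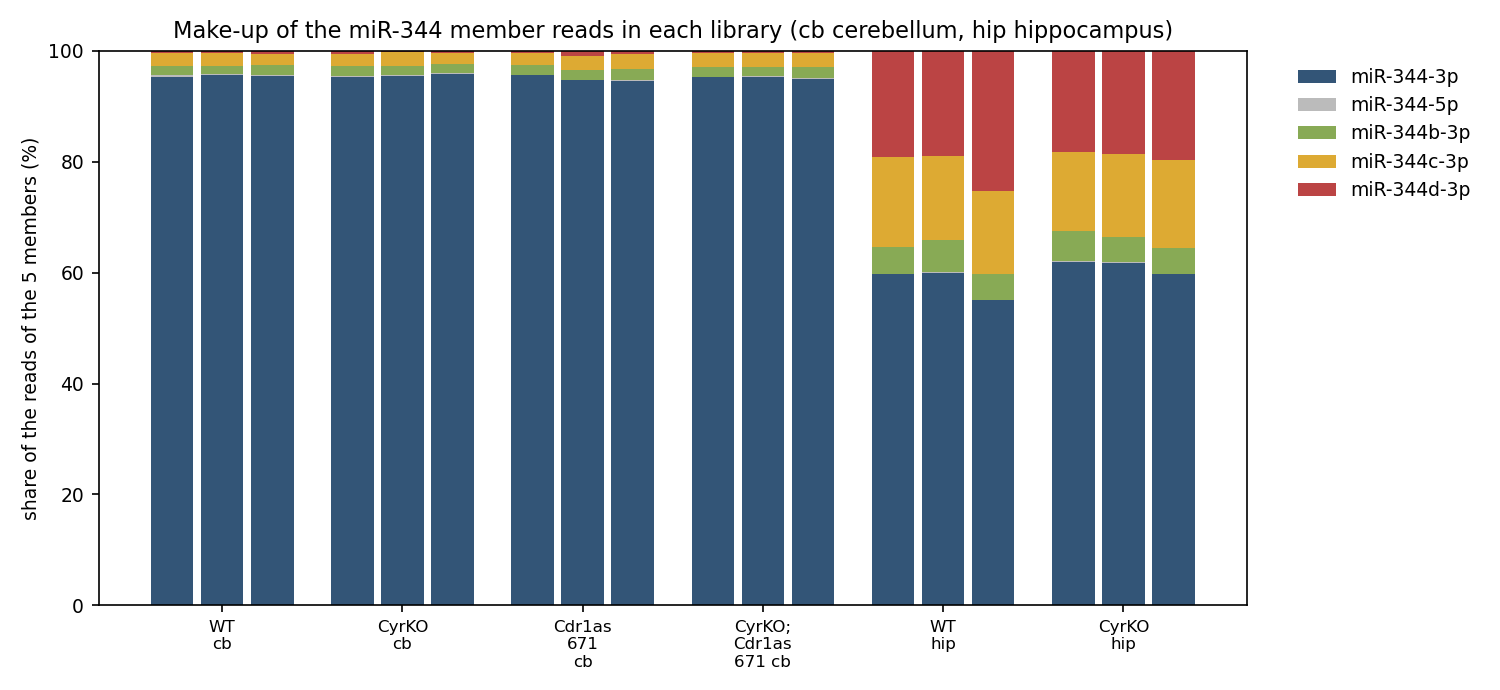
Share of each member in the summed reads of the 5 members, in percent, 1 bar for each of the 18 libraries, grouped by genotype and tissue. In the 12 cerebellum bars miR-344-3p fills 94.5% or more, and in the 6 hippocampus bars 55.1% to 62.0%, where miR-344c-3p and miR-344d-3p take most of the rest.

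Summed by seed, the same counts divide into groups with different directions. The seed GAUCUAG (miR-344-3p and miR-344c-3p) summed to 853 ± 85.5 CPM in WT cerebellum and 622 ± 20.4 CPM in WT hippocampus. Its lower hippocampal sum follows the abundant miR-344-3p. Within the family, the seed AUAUAAC (miR-344d-3p and miR-344e-3p) summed to 3.74 ± 0.725 and 181 ± 44.6 CPM. miR-410-3p, which has that seed but lies outside the family, was at 627 ± 76.6 CPM in WT cerebellum and 1251 ± 57.8 CPM in WT hippocampus. It was thus above miR-344d-3p in reads in both tissues. The 6 entries with the seed GUCAGGC, all 5p strands, summed to 4.21 ± 0.768 and 13.8 ± 1.04 CPM.

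Of the 12 other miR-344 entries, 10 were higher in every WT hippocampus library than in every WT cerebellum library, 1 was lower and 1 overlapped. The shares of 54.8% higher and 18.4% lower given above are over miRNAs at 1 CPM or more, which not all of these entries reach, and 1 of the 10 was miR-344g-3p, with 6 reads in each WT tissue over its libraries. In CyrKO, 9 were higher and 3 overlapped. Most were rare, with 8 of the 12 reaching a mean of 1 CPM in some group. miR-344f-5p was at 12.03 ± 3.23 CPM in WT hippocampus and 0.963 ± 0.138 CPM in WT cerebellum, and miR-344f-3p, its opposite strand, at 10.9 ± 1.95 and 2.46 ± 0.661 CPM. miR-344i was at 2.61 ± 0.691 and 0.776 ± 0.211 CPM. miR-344g-5p was the entry that went the other way, with 1.51 ± 0.198 CPM in WT hippocampus and 2.18 ± 0.532 CPM in WT cerebellum, and its interval from counting error (0.460 to 1.02 for hippocampus over cerebellum) included a ratio of 1.

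The other entries of the d and h hairpins had 5 reads or fewer in WT cerebellum. miR-344d-3-5p had 183 reads in the 3 WT hippocampus libraries (6.64 ± 1.01 CPM) and 5 in the 3 WT cerebellum libraries. miR-344d-1-5p had 69 and 1, a ratio of CPM with a 95% counting interval of 14.5 to 3355. miR-344h-3p had 79 and 1, with an interval of 16.7 to 3834. miR-344c-5p had 51 and 3. The 4 entries under 1 CPM in all groups were miR-344b-5p, d-2-5p, e-3p and g-3p, of which miR-344g-3p had 6 reads in each WT tissue.

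Along the cluster the entries with WT ratios below 1 came from neighbouring hairpins. The hairpins Mir344-2 and Mir344, at 145 and 207 kb from Mir344i, carry the 2 members that were lower in WT hippocampus. Their mature sequences are identical, so these 2 positions share the same ratios. Mir344g at 103 kb carries miR-344g-5p, whose WT counting interval included 1 and whose opposite strand had too few reads to place. In CyrKO the ratio was 1.09 for miR-344g-5p and 0.885 for miR-344-5p, and the tissues overlapped for both. Upstream of Mir344g, miR-344i, f-5p and f-3p had WT log2 ratios of 1.75, 3.64 and 2.15. Downstream, miR-344c-3p at 248 kb had 2.70, miR-344b-3p at 295 kb had 1.60, and miR-344d-3p from 359 to 402 kb had 5.68. The ratio thus did not rise or fall steadily in the order of the hairpins. Mir344 and Mir344c are neighbours in introns of 1 gene. Reads of miR-344-3p cannot be divided between Mir344 and Mir344-2, which lies in another gene, so the ratio of Mir344 alone is not known. Positions are not independent measurements, since the mature miRNAs come from the same libraries.

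**Figure D3:**
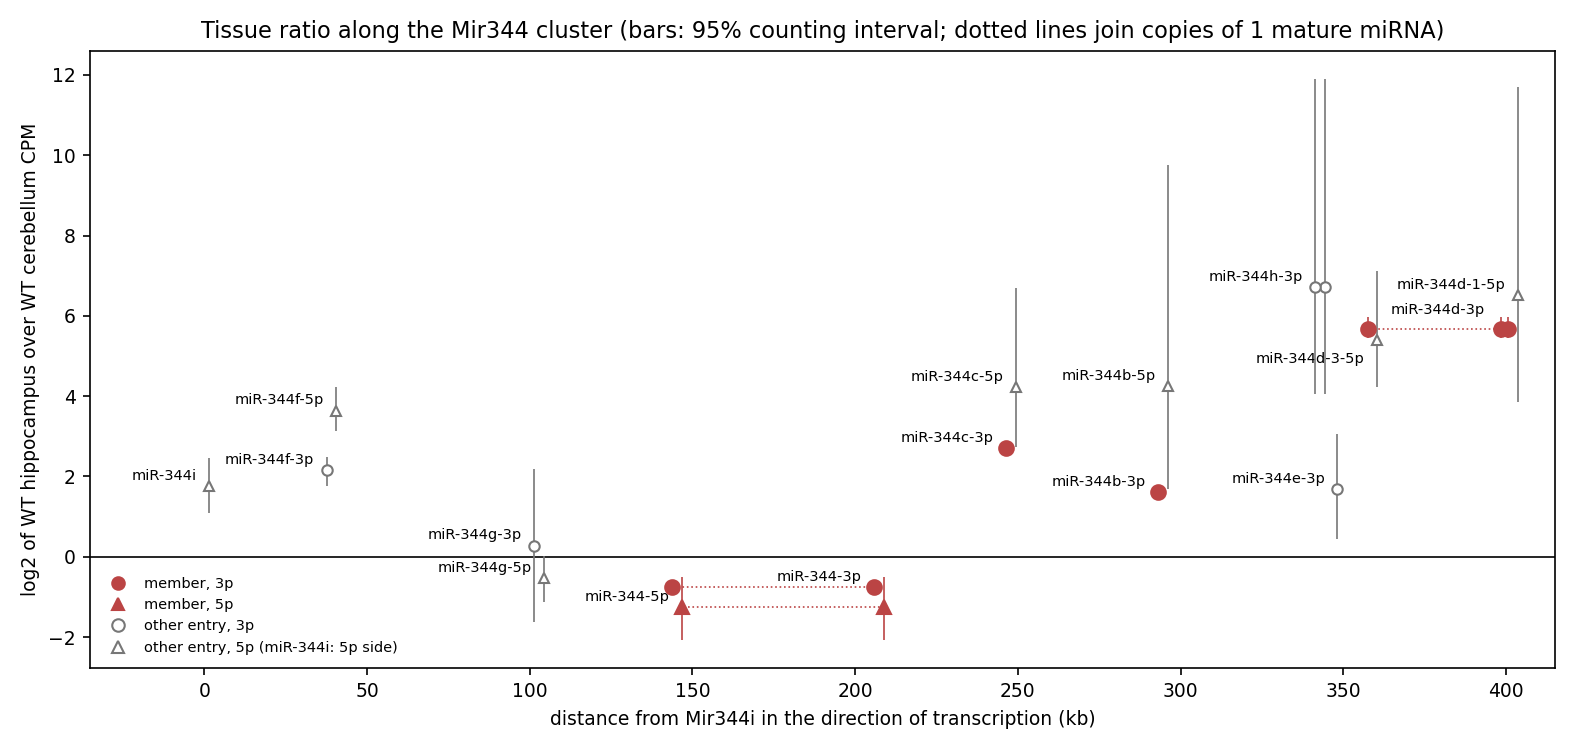
Log2 of the mean CPM in WT hippocampus over WT cerebellum for the miR-344 entries with reads in both tissues, against the distance of their hairpin from Mir344i in kb; members are filled and copies of 1 mature sequence are joined by dotted lines, and bars are 95% intervals for counting error alone. The entries from the hairpins at 145 and 207 kb lie below 0, and those from 248 kb on lie above 0.

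The 3p strand took most reads of the members' hairpins, at least 89.2% in any library (Mir344d hairpins, a double mutant cerebellum). It took 99.7% to 99.9% of the reads of Mir344 and Mir344-2 in all 18 libraries. For Mir344c, WT hippocampus gave 3588 reads of the 3p and 51 of the 5p strand, and for Mir344b 1200 and 17. The 3 Mir344d hairpins together gave 4980 and 253, a lower ratio of 19.7. Mir344f, which holds no member, had 300 reads of its 3p and 332 of its 5p strand in WT hippocampus, and 84 and 32 in WT cerebellum. Its 3p strand took 41.9% to 53.3% of its reads in the former and 62.1% to 79.2% in the latter. In double mutant cerebellum it took 48.0% to 73.0%, which reaches into the range of WT hippocampus. How often the strands of hairpins outside the family differ in this way between tissues was not counted. In Mir344g the 5p strand prevailed in both WT tissues, with 42 reads against 6 in hippocampus and 74 against 6 in cerebellum.

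The balance of the 2 strands of miR-344 was compared between genotypes, as the members were not chosen on it. The log2 ratio of miR-344-3p to miR-344-5p reads was 8.90 ± 0.188 in WT cerebellum and 9.35 ± 0.300 in CyrKO cerebellum (SD, n = 3, exact permutation p = 0.2, adjusted 0.4). In Cdr1as671 it was 9.47 ± 1.14 (exact p = 0.6, adjusted 0.6), and in double mutants 9.26 ± 0.452 (exact p = 0.2, adjusted 0.4). In hippocampus it was 9.34 ± 0.393 in WT and 8.95 ± 0.614 in CyrKO (exact p = 0.4, adjusted 0.533). Pairs of the same replicate number were also compared, though that pairing is uncertain for CyrKO. Within pairs the ratio was higher in CyrKO cerebellum by 0.56, 0.29 and 0.48 (exact paired permutation p = 0.25, the smallest that 3 pairs allow). The double mutants differed from WT by 0.87, 0.39 and −0.18 (exact paired permutation p = 0.5). None of the 4 two-sided unpaired comparisons passed, and with 3 against 3 the smallest possible p is 0.1. miR-344-5p had few reads, 3 in the second Cdr1as671 library.

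The CyrKO comparison asks which miRNAs change without Cyrano. In cerebellum no member was called changed by edgeR's quasi-likelihood test with Benjamini-Hochberg adjustment over all 668 tested miRNAs, of which 0.898% were called. The count of members was also 0 at an unadjusted p under 0.05, by DESeq2 and in the authors' deposited table. For miR-344-3p, which hardly moved, the log2 change was −0.05 ± 0.097 (SE), with a 95% interval of −0.26 to 0.16. miR-344c-3p gave −0.10 ± 0.132, miR-344b-3p 0.03 ± 0.152, and miR-344-5p −0.49 ± 0.293, where adjusted p was 0.999 for each. miR-344d-3p had an interval of −0.64 to 0.62, so changes of up to about that size are compatible with these libraries.

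Levels of miR-344d-3p and miR-344c-3p were higher in hippocampus than in cerebellum. In CyrKO hippocampus, 0 of the 4 members tested were again called, and 0 at an unadjusted p under 0.05 or by DESeq2. The background was 0.57% of 702 miRNAs. miR-344-5p had too few reads to be tested. The narrowest interval was that of miR-344-3p, −0.10 to 0.19 around a log2 change of 0.04. miR-344c-3p changed by −0.06 (−0.26 to 0.14), miR-344b-3p by −0.12 (−0.37 to 0.13) and miR-344d-3p by −0.20 (−0.58 to 0.18), none of them past the threshold (edgeR, adjusted p 0.846 to 0.945). The value for miR-344d-3p rests on the third WT library, without which it was 0.03.

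The effect of CyrKO was also compared between the tissues directly. No member differed (0 of 5 called, 0 at an unadjusted p under 0.05, 0 by DESeq2, background 0.402% of 746 miRNAs). The nearest was miR-344-5p, whose CyrKO change was 1.08 ± 0.509 (SE) higher in hippocampus on the log2 scale (95% interval −0.0051 to 2.16, adjusted p = 0.942 by edgeR). It rests on 20 and 38 reads in the 2 hippocampus groups.

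In Cdr1as671 cerebellum the members were again not called, 0 of 5 with a background of 2.26% of 665 miRNAs. The authors' deposited table also called 0, but gives no adjusted p for miR-344-5p and miR-344d-3p, which could not be called there. The count was 0 at an unadjusted p under 0.05 by edgeR and 0 by DESeq2. The lowest p was that of miR-344-3p, with a log2 change of −0.22 ± 0.112 (95% interval −0.46 to 0.03, adjusted p = 0.293 by edgeR). Its libraries overlapped those of WT, 692 to 795 CPM against 746 to 913 CPM. miR-344d-3p had a log2 change of 0.42 ± 0.245 (−0.11 to 0.96, adjusted p = 0.355). Libraries 1 and 2 of Cdr1as671 stood apart in the 3 erythroid miRNAs listed, which summed to 783 and 603 CPM there and to 5405 CPM or more in every other cerebellum library; their part in the members' values was not tested. With both left out, which was chosen after seeing the data, 1 Cdr1as671 library remains, and its spread was taken from the other groups in a fit of all cerebellum libraries. The log2 changes of miR-344-5p, miR-344b-3p and miR-344c-3p were then 0.20, 0.077 and 0.087, against −0.50, −0.09 and −0.10 in the same fit with all 12 libraries. The 1 library left gives no test of weight, and 1 of all miRNAs was called, against 42 with all 12 libraries.

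Double mutant cerebellum gave 0 of 5 members called against WT (background 2.57% of 662 miRNAs), with log2 changes from −0.37 for miR-344-5p to 0.13 for miR-344c-3p. Against CyrKO the count was 0 of 5 (background 2.33% of 688 miRNAs), with changes from −0.0016 for miR-344-3p to 0.20 for miR-344c-3p. Against Cdr1as671 it was 0 of 5 (background 0.727% of 688), and miR-344-3p, miR-344b-3p and miR-344c-3p had changes of 0.19, 0.18 and 0.21, with 0.13 for miR-344-5p and −0.33 for miR-344d-3p. The interaction of both mutations called 0 of 5 (background 0.145% of 688). In each of these 4 contrasts 0 members reached an unadjusted p under 0.05 and DESeq2 called 0. They share libraries with the comparisons above and are not independent of them.

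**Figure D4:**
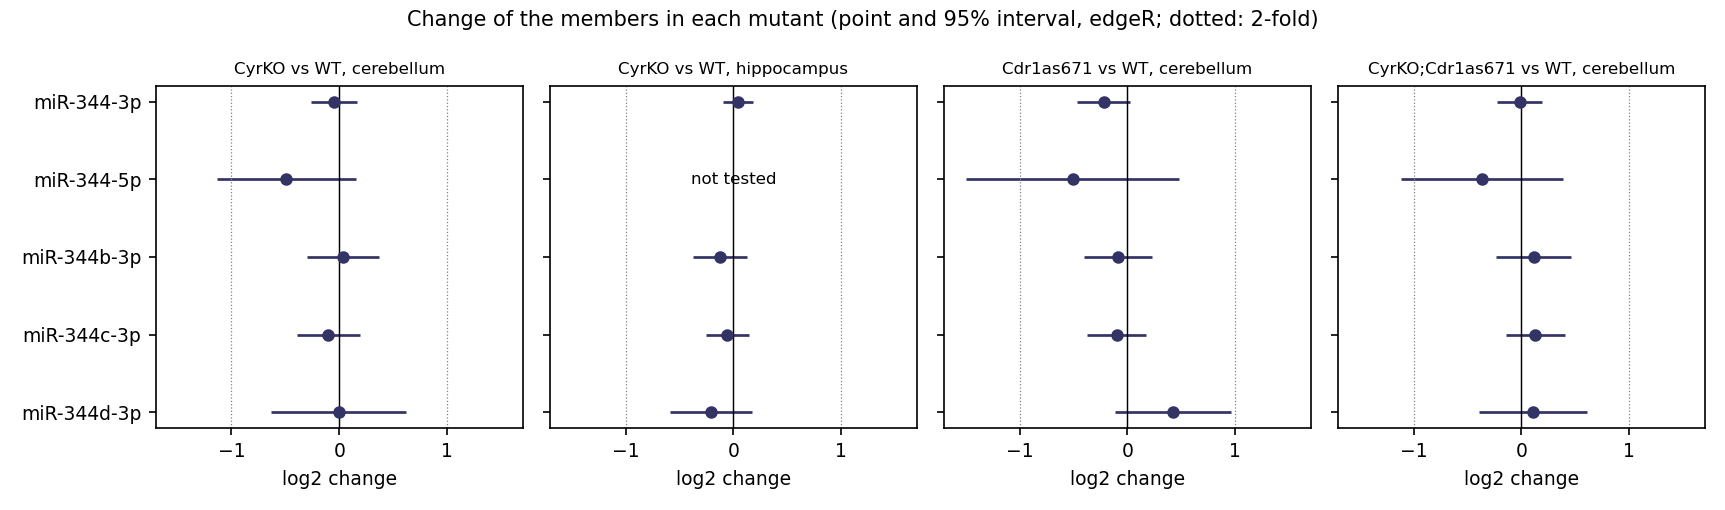
Log2 change of each member in the 4 comparisons of a mutant group with WT of its tissue, points with 95% intervals from edgeR, 3 libraries a group; dotted lines mark a 2-fold change. Every interval includes 0, and those of miR-344-3p, miR-344b-3p and miR-344c-3p stay between −0.46 and 0.46.

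Over the 4 comparisons of a mutant with WT, the intervals of miR-344-3p, miR-344b-3p and miR-344c-3p lay between −0.46 and 0.46 on the log2 scale. Those of miR-344d-3p reached from −0.64 to 0.96, and those of miR-344-5p from −1.49 to 0.48. These bounds give the changes compatible with the libraries. They are not limits of detection, as the adjustment over all miRNAs asks for more than an interval without 0. None of the tested other miR-344 entries was called in any of the 8 comparisons.

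Profiles over the 6 group means were compared for 4 members, without miR-344-5p, which was under 10 CPM in every group. With each profile taken as log2(mean CPM + 0.5), centred on its own mean, the root-mean-square difference was 0.55 between miR-344b-3p and miR-344c-3p, 1.24 between miR-344c-3p and miR-344d-3p, and 2.81 between miR-344-3p and miR-344d-3p. Among 465 miRNAs outside the family with 10 CPM or more in a group, the 5 nearest to the mean profile of these 4 members were miR-666-5p (0.060), miR-491-3p (0.076), miR-770-3p (0.084), miR-3475-3p (0.085) and miR-672-5p (0.089). The first of them was at 191 CPM in WT hippocampus and 39.9 CPM in WT cerebellum. For single members, a list added after the values were seen, miR-146b-5p was nearest to miR-344-3p (0.067), miR-431-3p to miR-344b-3p (0.063), miR-6944-3p to miR-344c-3p (0.093) and miR-200a-3p to miR-344d-3p (0.15). These are distances over 6 points that mostly carry the difference between tissues.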

How the data were processed

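Small RNAs of 18 to 32 nt from 5 ug of total RNA were read in 18 libraries of 6 groups (3 each, from the labels), with RNA integrity numbers of 8.5 to 9.5. The submitters' processing notes name cutadapt and DESeq2 1.10. For the aligner, miRNA annotation and genome build, the tool or version is not given in the sources used here. Deposited by the authors were 4 tables of 1841 mature miRNAs with raw counts, signal marked as normalised per the file headers (equal to the counts over a factor per library), the authors' log2 changes, their test score (named stat per the file headers) and their p-values, raw and adjusted. The WT cerebellum counts were the same in the 3 tables that hold them.

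Counts were fitted with edgeR 4.0.16 (TMM, filterByExpr at min.count 10 and min.total.count 15, robust quasi-likelihood F-test, Benjamini-Hochberg adjustment over all miRNAs tested, threshold 0.05) in R 4.3.3. Each mutant group was fitted with WT of its tissue, and the other contrasts came from 12 libraries in 1 fit. Fits were tested on simulated data. Alternatives were DESeq2 1.42.0, other scalings and filters, a replicate block, and leaving out libraries. Arm ratios used counts plus 0.5 and exact two-sided permutation tests (SciPy 1.17.1). CPM are counts over the library's miRNA total. Counting intervals of ratios are exact, at 95%, and cover counting error only, and reads are not independent molecules where no molecular identifiers were used, of which the labels name none.

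Members, marker lists and tests were chosen with earlier results of these data known. Named were all members, other miR-344 entries reaching 1 CPM in a group, the 5 miRNAs of most similar profile and at most 3 of a marker list. Replicate numbers come from the labels. Over 441 miRNAs, deviations of same-numbered libraries correlated in CyrKO and WT cerebellum (r = 0.567, 0.389 and 0.170). They also did in double mutant and WT cerebellum (r = 0.681, 0.449 and 0.545), and both comparisons were taken as paired in the block. WT libraries 2 and 3 correlated better with a CyrKO cerebellum library of another number, so the pairing with CyrKO is uncertain. Sequences, hairpin positions and the positions of Ndn, Magel2 and Mkrn3 are RefSeq's. The genes that overlap the hairpins are GENCODE's. Both sources were used for names, sequences and positions only.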

Additional observations from a re-analysis of the deposited data

How the results depend on the processing

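Counts of members called were 0 in all 8 comparisons under every alternative run, some of which, with libraries left out, have little power. Some alternatives could not call every member. The filter at a mean of 10 CPM left out miR-344-5p, and miR-344d-3p in the fits of cerebellum alone. The authors' deposited table gives no adjusted p for miR-344-5p in the double mutant, nor for miR-344-5p and miR-344d-3p in Cdr1as671. Of 663 alternative values for the 39 changes of members, 604 kept their sign, 59 did not, and 0 were called; the lowest adjusted p was 0.159 (edgeR, miR-344-3p, Cdr1as671 against WT, without Cdr1as671 library 3). With the replicate number as a block, 0 members were called in each comparison. The arm ratio in CyrKO and double mutant cerebellum differed from WT by a mean of 0.44 and 0.36 within pairs. With every library in a pair, this mean equals the unpaired difference by construction, so it is no check of that difference. Same numbers did not deviate together in CyrKO and WT hippocampus (r = −0.25, 0.70 and −0.26) or Cdr1as671 and WT (r = −0.58, −0.37 and 0.55), where the block moved all calls from 4 to 4 and from 15 to 42; it moved them from 17 to 35 for the double mutant against WT. Counts of all miRNAs called over the alternatives ran from 0 to 112 in Cdr1as671, 6 to 61 in the double mutant, 2 to 33 and 5 to 59 for it against CyrKO and Cdr1as671, 0 to 19 for the interaction, 4 to 7 and 6 to 7 for CyrKO in hippocampus and cerebellum, and 2 to 5 for its difference between tissues.

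Log2 ratios of hippocampus to cerebellum with TMM-scaled totals were, in WT, −1.32 for miR-344-3p, −1.81 for miR-344-5p, 1.04 for b-3p, 2.14 for c-3p and 5.13 for d-3p, and in CyrKO −1.25, 0.87, 2.17 and 4.90 for the same without miR-344-5p. Without the 10 most abundant miRNAs in the totals, miR-344-3p, b-3p and c-3p were at −1.14, 1.23 and 2.32 in WT and −1.02, 1.09 and 2.40 in CyrKO. Both settings only rescale the libraries.

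Changes of sign concerned values near 0 or few reads, and their cause was not tested. miR-344d-3p in CyrKO cerebellum was 0.012 with RLE factors, 0.017 without filter, 0.012 by DESeq2 and in the authors' deposited table, 0.0087 without the 10 most abundant and 0.011 in the fit of 12 libraries. The double mutant against CyrKO gave 0.021, 0.0048, 0.023, 0.030 and 0.055 for miR-344-3p (RLE, no filter, 10 CPM, DESeq2, without the 10 most abundant) and −0.0033 for b-3p with library totals. miR-344c-3p between tissues was −0.022 at 10 CPM and −0.0039 without the 10 most abundant. Without Cdr1as671 libraries 1 and 2, chosen after seeing the data, 1 library of that group remains, assumed to vary like the other cerebellum groups; miR-344-5p, b-3p and c-3p were 0.20, 0.077 and 0.087 against WT, and miR-344-5p was −0.56 for the double mutant against Cdr1as671 and −0.076 for the interaction.

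Leaving out 1 library at a time gave, for CyrKO cerebellum, −0.12 to 0.010 (miR-344-3p), −0.089 to 0.13 (b-3p) and −0.32 to 0.23 (d-3p); for CyrKO hippocampus −0.31 to 0.030 (d-3p); for its difference between tissues −0.020 to 0.16 (miR-344-3p), −0.088 to 0.12 (c-3p) and −0.47 to 0.086 (d-3p). It gave −0.15 to 0.0098 for b-3p in Cdr1as671. For the double mutant it gave −0.096 to 0.061, −0.062 to 0.22 and −0.0018 to 0.30 against WT (miR-344-3p, b-3p, d-3p), −0.035 to 0.12, −0.13 to 0.42, −0.083 to 0.20 and −0.11 to 0.43 against CyrKO (miR-344-3p, miR-344-5p, b-3p, d-3p), −0.29 to 0.70 against Cdr1as671 (miR-344-5p) and −0.56 to 0.0080 for the interaction (d-3p). The arm ratio in Cdr1as671 against WT ran from −0.066 to 1.04.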
